A study of Mus musculus with 52 samples.

Results

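The p53 gene Trp53 and the genes of 4 proteins that feed back on it, Mdm2, Mdm4, Ppm1d and Ccng1, were described in 52 mouse bone marrow libraries. The 5 genes were taken by symbol from both deposited count tables, where each had 1 row, among 13566 genes for sorted haematopoietic stem cells (HSC) and 15168 genes for marrow stroma. All 5 were measured in both tables. Mice were injected with vehicle or a prostaglandin E receptor agonist 30 min before total-body irradiation with 853 cGy, and marrow was taken 1 h after irradiation. The irradiated groups in both fractions received vehicle, the EP3 agonist sulprostone, the EP4 agonist rivenprost, sulprostone with rivenprost, or misoprostol, a prostaglandin E analogue that acts on several EP receptors. Stroma had 3 further groups, namely irradiated mice given PGE and non-irradiated mice given vehicle or PGE, and PGE is read here as dmPGE2, the stable prostaglandin E2 analogue of the series title. There were 4 mice (2 of each sex) in every one of the 13 groups, and each mouse gave 1 library. Agonist doses, mouse strain and age are not given in the sources used here. Every HSC library came from an irradiated mouse.

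The protein p53 is a transcription factor that DNA damage activates, chiefly by slowing its breakdown and by modifying it, so the amount of Trp53 mRNA is not a measure of p53 activity. Mdm2 is the ubiquitin ligase that marks p53 for breakdown, and p53 switches on Mdm2 itself, which closes a negative feedback loop. Mdm4 is a relative of Mdm2 that binds p53 and blocks its activity. Ppm1d encodes Wip1, a phosphatase that removes phosphates placed by the DNA damage kinases. Ccng1 encodes cyclin G1, which brings protein phosphatase 2A to Mdm2. Mdm2, Ppm1d and Ccng1 are known p53 targets. Irradiated blood-forming marrow is among the tissues in which p53 drives cell death. Of the prostaglandin receptors, EP4 raises cyclic AMP in the cell and EP3 mainly lowers it.

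Libraries held 27.4 to 49.2 M counts in HSC and 38.0 to 73.7 M in stroma. Levels are given as CPM, counts scaled to the total count of the library, as mean ± SD over the 4 mice of a group (n = 4 throughout). Counts of the members were high, from 1328 in the lowest library upwards for Ppm1d, 2213 for Mdm2, 3632 for Ccng1 and 4764 for Trp53, while Mdm4 reached as low as 52 counts in 1 HSC library. The HSC libraries held all 10 listed HSC markers, at 1290 to 2836 summed CPM, and the stroma libraries held all 8 mesenchymal markers, at 4504 to 45520 summed CPM. RNA of CD45, a protein used to deplete other cells from the stroma, was still present there, with its gene Ptprc at 68.1 to 299.8 CPM. All 8 granulocyte markers were found in stroma as well, at 784 to 12060 summed CPM. Among HSC libraries, sulprostone replicate 1 stood apart with 10680 summed CPM of granulocyte markers, where the other 4 groups had 18.3 to 372. It was also the highest HSC library for erythroid (4776 CPM, median 302) and monocyte and macrophage markers (3513 CPM, median 634). The same held for the measured B cell (154.6 CPM, median 58.7) and mesenchymal markers (47.0 CPM, median 10.4). Endothelial, megakaryocyte, HSC and T and NK cell sums were highest in other libraries. Among stroma libraries, replicate 4 of non-irradiated vehicle and of non-irradiated dmPGE2 had the lowest rank correlations with the others, 0.950 and 0.960, and the highest mesenchymal marker sums, 45520 and 29430 CPM. These libraries came from mice in a number range of the titles that held no other mouse and no irradiated one, so the range and these marker sums cannot be told apart. In such bulk samples fewer cells of a type and less RNA per cell cannot be told apart.

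The promoter windows of the 5 genes come first because Mdm2, Ppm1d and Ccng1 are known p53 targets. RefSeq windows of GRCm38.p6, from 250 bases before to 50 bases after each gene start, were searched for the p53 half-site consensus, which reads the same on both strands, with no mismatch allowed. An exact half-site was found in the windows of Mdm2, Ppm1d, Ccng1 and Trp53, and none was found in either of the 2 windows of Mdm4. An exact half-site stood in 8.36% of all 32851 windows. Stretches of 70 bases on the strand of each gene follow, in which capitals mark the half-site, and in Ccng1 the half-site together with the adjoining half-site that has 1 mismatch.
Mdm2: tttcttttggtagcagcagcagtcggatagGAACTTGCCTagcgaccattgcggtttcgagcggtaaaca
Ppm1d: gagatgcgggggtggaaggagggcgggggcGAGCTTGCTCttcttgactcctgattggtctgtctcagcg
Ccng1: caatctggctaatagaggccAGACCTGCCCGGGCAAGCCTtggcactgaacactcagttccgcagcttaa
Trp53: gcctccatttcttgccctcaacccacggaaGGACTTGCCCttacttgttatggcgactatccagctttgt
They lie at chr10:117710905-117710974 on the minus strand for Mdm2, chr11:85311092-85311161 on the plus strand for Ppm1d, chr11:40755432-40755501 on the minus strand for Ccng1 and chr11:69580254-69580323 on the plus strand for Trp53. The half-sites begin 186 bases before the gene start in Mdm2, 185 in Ccng1 and 75 in Trp53. In Ccng1 the adjoining pair begins 195 bases before the start, and a pair with at most 1 mismatch was found in 29 of the 32851 windows, 0.0883%. A match describes these letters only, and the p53-responsive promoter that is known for Mdm2 lies in an intron, outside this window. In the mm10 coordinates of the deposited tables the genes span chromosome 11, 69580359 to 69591873 (Trp53), chromosome 10, 117688875 to 117710758 (Mdm2), chromosome 1, 132986105 to 133030587 (Mdm4), chromosome 11, 85311254 to 85347071 (Ppm1d) and chromosome 11, 40748552 to 40755286 (Ccng1).

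The first comparison asked what irradiation did to the loop in stroma of vehicle mice. Mdm2, Ccng1 and Ppm1d rose within the hour, by 3.43-fold, 4.04-fold and 1.91-fold. Trp53 and Mdm4 stood higher on average but did not pass the test. By edgeR's quasi-likelihood test, with p-values adjusted over all genes of the table, 3 of 5 members were called at an adjusted p under 0.05, beside 0.771% of all genes.

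Mdm2 stood at 52.2, 57.6, 62.3 and 65.3 CPM in the 4 non-irradiated vehicle mice and at 196, 199.7, 187 and 217 CPM in the 4 irradiated ones. The groups were far apart, and the lowest irradiated mouse lay above the highest non-irradiated one. The log2 fold change was 1.78 (SE 0.17, adjusted p = 2.55e-07). Ccng1, the cyclin G1 gene, stood at 128.8, 135.2, 128.8 and 104.2 CPM without irradiation and at 492, 494, 441 and 550.1 CPM with it. This was the largest difference among the members (2.01 on the log2 scale, SE 0.21, adjusted p = 5e-07). Ppm1d, the phosphatase gene, stood at 42.5, 45.2, 40.3 and 41.2 CPM without irradiation and at 76.4, 77.8, 83.8 and 78.8 CPM with it. Its groups were tight, and its log2 fold change was 0.93 (SE 0.12, adjusted p = 1.48e-05).

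Trp53 itself stood at 233.2, 259.3, 195.4 and 135.96 CPM in non-irradiated and at 292, 282, 252 and 290.4 CPM in irradiated vehicle mice. The groups overlapped, with 3 of 4 irradiated mice above every non-irradiated one. The log2 fold change was 0.47 (SE 0.17, 95% interval 0.12 to 0.81), and it missed the threshold (adjusted p = 0.295). Without non-irradiated vehicle replicate 4, the library with the lowest Trp53 and 45520 summed CPM of the 8 mesenchymal markers where the lowest of its group had 14030, the log2 fold change was 0.30 (adjusted p = 0.907). With the mouse number range of the titles as a term it was 0.33 and passed (adjusted p = 0.028), where the range of this library holds only replicate 4 of both non-irradiated groups, so the term takes up their shared level. The part of these markers in the Trp53 value was not tested. Mdm4, the p53-binding relative of Mdm2, stood at 81.8 to 101.0 CPM without and 91.5 to 139.2 CPM with irradiation. Its log2 fold change was 0.31 (95% interval -0.0045 to 0.63, adjusted p = 0.554).

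**Figure D1:**
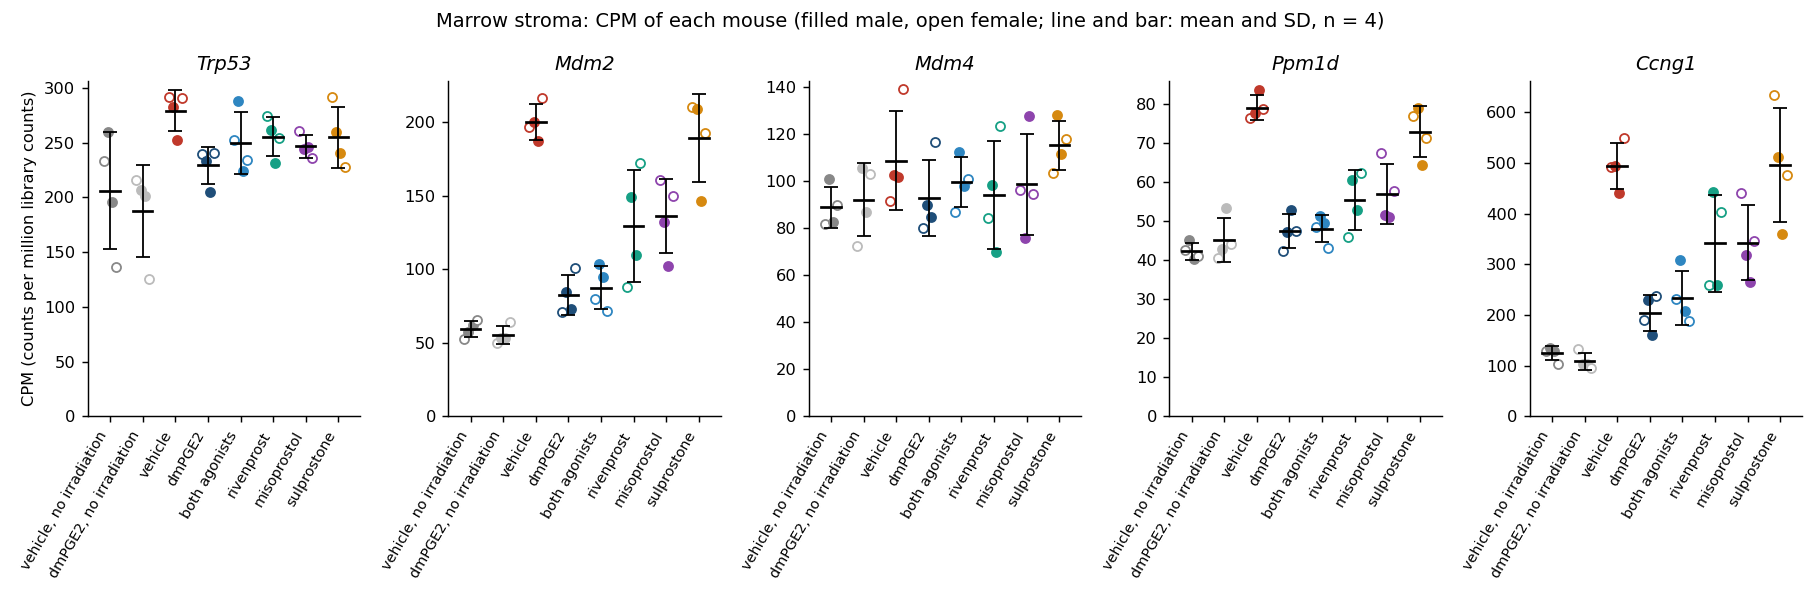
CPM of the 5 genes in stroma, 1 panel per gene, with 1 point per mouse (filled male, open female) and the mean with SD of 4 mice in each of the 8 groups. Mdm2, Ppm1d and Ccng1 were highest in irradiated vehicle and sulprostone mice, with Mdm2 at 187.3 to 216.5 and at 146.2 to 209.9 CPM, while most groups of Trp53 and Mdm4 overlap.

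Granulocyte markers did not separate these groups: all 8 were measured, at 4032 to 9427 summed CPM without irradiation and 2448 to 12060 CPM with it. The mesenchymal sums also overlapped, at 14030 to 45520 and 11140 to 22250 CPM. Of the wider list of p53 targets, which holds none of the 5 members, 22 of 46 measured genes rose in the same comparison and none fell (1 by DESeq2), with 24 not called. Their median log2 fold change was 0.76, beside -0.01 for all genes tested. The count of 22 was 15 to 19 with 1 library left out, 15 in a fit of the compared groups alone and 24 by DESeq2. The strongest by adjusted p were Slc19a2, a thiamine transporter gene (7.86 ± 0.44 to 73.9 ± 19.1 CPM, 3.25 on the log2 scale, SE 0.24), and Sesn2, a stress-induced inhibitor of mTORC1 (18.8 ± 1.63 to 123.9 ± 15.7 CPM, 2.75, SE 0.25). Tnfrsf10b, a death receptor gene, rose by 3.95 (SE 0.39) from 1.77 ± 0.64 CPM, and Cdkn1a, the cell cycle inhibitor p21, rose by 3.17 (SE 0.32) from 36.4 ± 7.44 CPM. Of 34 other regulators of p53, such as kinases, acetylases and ubiquitin ligases that act on it, 1 rose, none fell and 33 were not called (median log2 fold change 0.03). The 1 called gene is 2.94% of the list, beside 0.771% of all genes. That gene was Ppp1r13l, an inhibitor of p53 known as iASPP, at 5.15 ± 2.02 CPM without and 12.9 ± 2.88 CPM with irradiation (1.35, SE 0.27, adjusted p = 0.00795). None of the 10 partners of cyclin G1, mostly subunits of protein phosphatase 2A, was called by edgeR or by DESeq2, and 1 had an unadjusted p under 0.05.

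The second question was whether dmPGE2 given before irradiation altered these levels. Without irradiation dmPGE2 left the members close to vehicle, and 0 of 5 were called by edgeR (0 at an unadjusted p under 0.05 and 0 by DESeq2), beside 3.76% of all genes. Mdm2 stood at 49.9, 53.2, 52.9 and 64.0 CPM in the 4 non-irradiated dmPGE2 mice (log2 fold change against non-irradiated vehicle -0.04, 95% interval -0.38 to 0.30). Ccng1 stood at 95.5 to 133.2 CPM (-0.12, -0.53 to 0.28) and Ppm1d at 40.6 to 53.4 CPM (0.17, -0.06 to 0.41). These intervals do not show that the levels were the same. Trp53 was at 125.3 to 216 CPM and Mdm4 at 72.6 to 106 CPM, both overlapping vehicle.

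In irradiated mice the same compound went with far lower feedback genes. Mdm2, Ccng1 and Ppm1d fell to 0.427, 0.431 and 0.626 of irradiated vehicle, so 3 of 5 members were called, beside 1.98% of all genes (300 of 15168). Mdm2 stood at 71.2, 84.4, 72.6 and 101 CPM in the 4 irradiated dmPGE2 mice, all of them below the lowest vehicle mouse at 187 CPM. Its log2 fold change was -1.23 (SE 0.17, adjusted p = 0.000463), and by unadjusted p it ranked 2 of all genes. Ccng1 stood at 189.6, 230.3, 160.5 and 237 CPM, again apart from the vehicle mice (-1.21, SE 0.20, adjusted p = 0.00163). Ppm1d stood at 42.5, 47.3, 53 and 47.4 CPM, against 76.4 CPM in the lowest vehicle mouse (-0.675, SE 0.12, adjusted p = 0.00204).

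Trp53 was not called, although its 4 dmPGE2 mice, at 239.5, 233, 205 and 240.2 CPM, lay below the lowest vehicle mouse at 252 CPM. Its log2 fold change was -0.22 (95% interval -0.56 to 0.12, adjusted p = 0.504). Mdm4 stood at 80.2 to 116.6 CPM and overlapped vehicle (-0.17, -0.49 to 0.15, adjusted p = 0.592). The mesenchymal marker sums of the 2 groups overlapped, at 5304 to 13130 CPM with dmPGE2 and 11140 to 22250 CPM with vehicle, but were lower on average, 9011 against 14800 CPM. Granulocyte markers summed to 1349 to 11590 CPM (mean 5865) against 2448 to 12060 CPM (mean 7736), and the 6 monocyte and macrophage markers to 626.8 to 2228 CPM (mean 1136) against 920 to 2134 CPM (mean 1664). The part of these markers in the results was not tested. Among p53 targets 14 of 46 fell and none rose (median log2 fold change -0.36, all genes 0.02). The 4 of smallest adjusted p were Sesn2 (-1.59 on the log2 scale, SE 0.24), Ei24 (-0.55, SE 0.09), the translesion polymerase gene Polk (-1.73, SE 0.32) and the receptor gene Eda2r (-2.05, SE 0.38). Of the 34 other p53 regulators 1 rose and 33 were not called, so 2.94% were called, beside 1.98% of all genes. The gene was the acetyltransferase gene Kat5, which modifies p53 (35.8 ± 2.02 to 44.4 ± 3.89 CPM, 0.38 on the log2 scale, SE 0.10, adjusted p = 0.036).

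Irradiated dmPGE2 mice were also set against non-irradiated mice that had received dmPGE2. By edgeR 0 of 5 members were called there, beside 0.0461% of all genes, which is 7 genes, with 2 members at an unadjusted p under 0.05 and 1 called by DESeq2. Mdm2 was 1.51-fold higher (log2 fold change 0.59, SE 0.17, adjusted p = 0.578) and Ccng1 1.89-fold higher (0.92, SE 0.20, adjusted p = 0.131). The groups did not overlap for either gene, which is a description without the share of all genes that did so. In the authors' deposited table the log2 fold change of Ccng1 was 0.92 with an FDR of 0.0149. Ppm1d, at 42.5 to 53 CPM with and 40.6 to 53.4 CPM without irradiation, overlapped almost fully (0.08, 95% interval -0.15 to 0.32). Of the p53 targets Eda2r (log2 fold change 2.995, SE 0.42), Slc19a2 (1.66, SE 0.23) and the pro-apoptotic gene Bbc3 (2.05, SE 0.33) rose, and 43 of 46 were not called (median 0.24, all genes 0.0001). In a fit of these 2 groups alone 0 targets were called, and DESeq2 called 5, all higher.

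The test of the difference between the 2 irradiation responses is the interaction of dmPGE2 with irradiation. The log2 change with irradiation under dmPGE2, less that under vehicle, was -1.19 for Mdm2 (SE 0.23, adjusted p = 0.0632), -0.85 for Ppm1d (SE 0.16, adjusted p = 0.0531) and -1.09 for Ccng1 (SE 0.28, adjusted p = 0.569). None of the 5 passed the threshold by edgeR, beside 0.0264% of all genes (4 of 15168), while 3 had an unadjusted p under 0.05. By unadjusted p Ppm1d ranked 5, Mdm2 6 and Ccng1 16 of all genes. DESeq2 called these 3 members, at adjusted p of 0.00106 for Ppm1d, 0.00203 for Mdm2 and 0.049 for Ccng1. Leaving out non-irradiated dmPGE2 replicate 2 also brought Ppm1d past the threshold in edgeR (adjusted p = 0.0324). Trp53 (-0.16, 95% interval -0.64 to 0.32) and Mdm4 (-0.29, -0.74 to 0.16) had small estimates with wide intervals. The p53 targets called in the interaction were Cdkn1a (-2.75, SE 0.43), Tnfrsf10b (-3.10, SE 0.51) and Sesn2 (-1.91, SE 0.34), while DESeq2 called 8, all lower. In non-irradiated mice 5 of the 46 targets rose with dmPGE2 and 1 fell (median 0.07, all genes 0.01). The 5 were Cdkn1a (36.4 ± 7.44 to 171 ± 51.5 CPM, 2.28 on the log2 scale, SE 0.31), Plk3 (1.26, SE 0.28), the growth arrest gene Gadd45a (0.72, SE 0.17), Tnfrsf10b (1.34, SE 0.37) and Plk2 (1.21, SE 0.34), while the nucleotide excision repair gene Xpc fell by 0.54 (SE 0.15). Of the 34 regulators 1 was called there, which is 2.94%, beside 3.76% of all genes. The gene was Csnk1a1, a casein kinase that acts with Mdm4 on p53 (295.5 ± 17.6 to 364 ± 6.62 CPM, 0.37, SE 0.09, adjusted p = 0.0215). The count of 5 targets dropped to 3 without non-irradiated vehicle replicate 3 or 4 or non-irradiated dmPGE2 replicate 1 or 3, and to 2 without non-irradiated dmPGE2 replicate 4. It was 1, with 0 lower, in a fit of the 2 groups alone, and 1 without replicate 4 of both. Of the cyclin G1 partners DESeq2 called 1 in that comparison, and edgeR called none in any stroma comparison, with at most 2 at an unadjusted p under 0.05.

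The third question was which receptor agonist gave levels like those of dmPGE2 in stroma. All of these comparisons share the 4 irradiated vehicle mice, and the doses are not given, so the values stand side by side. With both agonists Mdm2, Ccng1 and Ppm1d were called, all lower. Rivenprost and misoprostol each gave Ppm1d a log2 fold change of -0.45, on either side of the threshold by edgeR (adjusted p = 0.0469 and 0.0532). No other member was called with them, and none with sulprostone. Levels with sulprostone overlapped vehicle for all 5 genes. Statements on overlap below describe the mice compared, and no share of all genes is set beside them.

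After sulprostone with rivenprost, 3 of 5 members were called, all lower, beside 3.09% of all genes (469 of 15168). Mdm2 stood at 79.9, 104, 94.9 and 71.3 CPM, all below the vehicle mice (log2 fold change -1.15, SE 0.17, adjusted p = 0.000359). Ccng1 stood at 232, 309, 209 and 187.5 CPM (-1.03, SE 0.20, adjusted p = 0.00357), and Ppm1d at 48.6, 51.3, 49.6 and 43.1 CPM (-0.68, SE 0.12, adjusted p = 0.00121). In all 4 mice these 3 genes lay below every vehicle mouse, which is a description without the share of all genes that did so. Trp53, at 224 to 288 CPM, and Mdm4, at 86.9 to 112.6 CPM, overlapped vehicle (adjusted p = 0.717 and 0.794). Of the p53 targets 13 of 46 fell and none rose (median -0.46, all genes 0.03), led by Sesn2 (-1.51, SE 0.24), Polk (-1.67, SE 0.32), the mitotic gene Gtse1 (-1.02, SE 0.20) and Ei24 (-0.46, SE 0.09). The count of 13 was 6 without vehicle replicate 2 or without replicate 1 of both agonists, and 4 without replicate 4 of both agonists. Mesenchymal marker sums were 4504 to 14120 CPM with both agonists against 11140 to 22250 CPM with vehicle. All 8 granulocyte markers summed to 2587 to 4667 CPM (mean 3850) against 2448 to 12060 CPM (mean 7736) with vehicle, and all 6 monocyte and macrophage markers to 490.6 to 1518 CPM (mean 816.7) against 920 to 2134 CPM (mean 1664). The part of these markers was not tested.

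Rivenprost alone gave intermediate levels that varied between mice. Ppm1d was the 1 of 5 members called, beside 1.13% of all genes, at 45.9, 60.7, 52.9 and 62.4 CPM against 76.4 or more in vehicle mice (log2 fold change -0.45, SE 0.11, adjusted p = 0.0469). This call was at the edge: it ended without vehicle replicate 1, 2, 3 or 4 (adjusted p = 0.117, 0.096, 0.154 and 0.0904), without rivenprost replicate 1, 2 or 3 (0.159, 0.0729 and 0.163), with size factors of the RLE kind (0.0534) and in a fit of the 2 groups alone (0.226). Mdm2 ranged widely, at 87.7, 149, 109.5 and 172 CPM, all below vehicle but not called (-0.57, SE 0.17, adjusted p = 0.102). Without rivenprost replicate 4, the highest of them, its log2 fold change was -0.72 and it passed (adjusted p = 0.0316). Ccng1 stood at 259, 443, 259.5 and 404 CPM, with 3 of 4 mice below the lowest vehicle mouse (-0.47, SE 0.20, adjusted p = 0.375). None of the 46 p53 targets was called by edgeR or by DESeq2, with 8 at an unadjusted p under 0.05 and a median of -0.21 (all genes 0.04). Kat5 was the 1 of 34 regulators called (2.94%, beside 1.13% of all genes), at 44.6 ± 2.19 CPM (0.38, SE 0.10, adjusted p = 0.0449). Granulocyte markers summed to 2715 to 5737 CPM (mean 4421) and monocyte and macrophage markers to 687.9 to 1251 CPM (mean 925.1), with means below vehicle, and their part was not tested.

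After misoprostol 0 of 5 members were called in stroma by edgeR, beside 0.916% of all genes, with 3 at an unadjusted p under 0.05 and 1, Ppm1d, called by DESeq2. Ppm1d stood at 67.5, 51.6, 51.0 and 57.7 CPM, all below vehicle (-0.45, SE 0.11, adjusted p = 0.0532), and without misoprostol replicate 1 it passed (adjusted p = 0.0195). In the authors' deposited table its FDR was 0.0377, the same as with rivenprost. Mdm2 stood at 160.7, 131.9, 102.4 and 149.5 CPM (-0.54, SE 0.17, adjusted p = 0.133) and Ccng1 at 442, 319, 265 and 347 CPM (-0.51, SE 0.20, adjusted p = 0.284). For Mdm2 the 4 mice lay below every vehicle mouse, for Ccng1 3 of 4 did. None of the 46 p53 targets was called by edgeR, with 8 at an unadjusted p under 0.05 and 1 called by DESeq2 (median -0.23, all genes 0.03). Granulocyte markers summed to 1756 to 4645 CPM (mean 3277) and monocyte and macrophage markers to 417.4 to 1799 CPM (mean 782.5), again with means below vehicle, and their part was not tested.

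Sulprostone left the 5 genes near irradiated vehicle. None of 5 members was called by edgeR or DESeq2, beside 0.105% of all genes, and none had an unadjusted p under 0.05. Mdm2 stood at 209.9, 209, 146 and 193 CPM (log2 fold change -0.05, 95% interval -0.39 to 0.28), Ccng1 at 635, 512, 360.0 and 477 CPM (0.03, -0.38 to 0.44) and Ppm1d at 77.1, 79.1, 64.4 and 71.3 CPM (-0.09, -0.33 to 0.14). Replicate 3 was the lowest for these 3 genes. None of the 46 p53 targets was called by edgeR or DESeq2, with 2 at an unadjusted p under 0.05 and a median of 0.05 (all genes 0.0025). Granulocyte marker sums were 4053 to 6066 CPM (mean 4735) against 2448 to 12060 CPM (mean 7736) with vehicle. Monocyte and macrophage markers summed to 806 to 1409 CPM (mean 1033) against 920 to 2134 CPM (mean 1664). Both means were below vehicle here too, and the part of these markers was not tested.

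Rivenprost was tested directly against sulprostone. By edgeR 0 of 5 members were called, beside 0.033% of all genes, while 3 had an unadjusted p under 0.05 and DESeq2 called none. The log2 difference, rivenprost less sulprostone, was -0.52 for Mdm2 (95% interval -0.86 to -0.18, adjusted p = 0.277), -0.36 for Ppm1d (-0.60 to -0.13, adjusted p = 0.267) and -0.50 for Ccng1 (-0.91 to -0.10, adjusted p = 0.422). Ppm1d was lower in all 4 rivenprost mice than in any sulprostone mouse, while Mdm2 and Ccng1 overlapped between the 2 groups. Trp53 (0.04, -0.30 to 0.38) and Mdm4 (-0.26, -0.57 to 0.06) had intervals that reach both sides of 0.

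**Figure D2:**
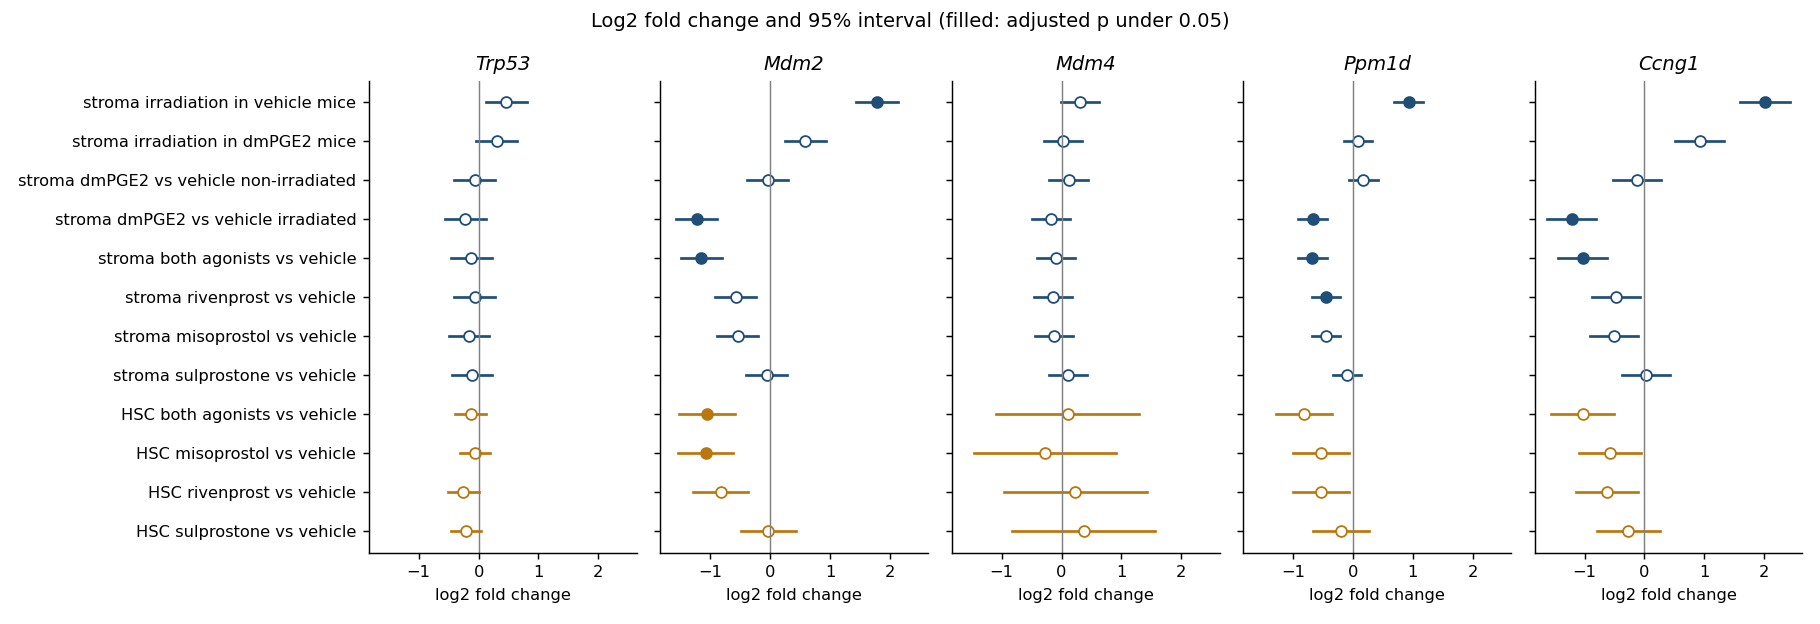
Log2 fold change (horizontal axis) with its 95% interval for each of the 5 genes in 8 stroma and 4 HSC comparisons, filled where the adjusted p was under 0.05. In stroma the filled points of Mdm2, Ppm1d and Ccng1 lie above 0 for irradiation in vehicle mice (Ccng1 2.01) and below 0 for dmPGE2 and both agonists in irradiated mice (Mdm2 -1.23 and -1.15); Mdm4 has wide intervals in HSC.

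Placing each mouse on the rise of vehicle mice, from the non-irradiated mean (0%) to the irradiated mean (100%), gives one scale for the 3 genes. Mdm2 reached 16.3 ± 9.71% of that rise with dmPGE2, 19.98 ± 10.4% with both agonists, 49.95 ± 27.1% with rivenprost, 54.6 ± 18.1% with misoprostol and 92.5 ± 21.2% with sulprostone. Ppm1d reached 14.2 ± 11.7, 15.9 ± 9.59, 35.7 ± 20.6, 39.7 ± 20.8 and 83.1 ± 17.8% in the same order. Ccng1 reached 21.7 ± 9.74, 29.7 ± 14.3, 58.7 ± 25.97, 59.2 ± 20.1 and 100.5 ± 30.6%. The order of these 5 group means was the same for the 3 genes, but each group overlapped the next one in it, and sulprostone overlapped vehicle, for all 3 genes. The 3 genes were read in the same libraries, so the shared order is not 3 separate results. Their deviations from stroma group means had correlations of 0.71 (Mdm2 with Ccng1), 0.65 (Mdm2 with Ppm1d) and 0.52 (Ppm1d with Ccng1). With dmPGE2 and with both agonists, 1 of 4 mice had Ppm1d within the range of non-irradiated vehicle mice, and none did for Mdm2 or Ccng1. For Trp53 the group means ran from 187 CPM in non-irradiated dmPGE2 to 279 CPM in irradiated vehicle mice, and for Mdm4 from 88.9 CPM in non-irradiated vehicle to 115.3 CPM in sulprostone mice, with neighbouring groups overlapping throughout.

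In HSC the comparisons started from irradiated vehicle mice, since no non-irradiated HSC were analysed here. Mdm2 was called after both agonists and after misoprostol, at 0.483 and 0.474 of vehicle. Ccng1 and Ppm1d had lower means in every agonist group without passing edgeR's test in any, while DESeq2 called each of them after both agonists. Trp53 and Mdm4 were not called in any HSC comparison by edgeR or DESeq2. Where HSC groups are said not to overlap, this again describes the mice compared, without the share of all genes that did so.

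Mdm2 stood at 312, 248, 229 and 244 CPM in the 4 vehicle HSC libraries. After both agonists it stood at 138.9, 152.6, 94.5 and 104.8 CPM, all below vehicle, and it was the 1 of 5 members called, beside 0.545% of all genes (log2 fold change -1.05, SE 0.22, adjusted p = 0.0276). The call ended when any 1 vehicle library was left out (adjusted p = 0.103, 0.0504, 0.0599 and 0.0632 without replicate 1, 2, 3 and 4), without replicate 3 (0.131) or 4 (0.125) of the treated group, and when the model held only the libraries compared (0.077). In the authors' deposited table the log2 fold change was -1.05 with an FDR of 0.00125. Ccng1 stood at 209.2, 186.5, 127.7 and 126.6 CPM against 302, 269, 354 and 429 CPM in vehicle HSC. The groups did not overlap (-1.03, SE 0.25, adjusted p = 0.0793), and without replicate 1 of both agonists it passed (adjusted p = 0.0402), as it did without the 3 libraries of lowest rank correlation (0.0258). Ppm1d stood at 46.3, 32.6, 54.0 and 67.7 CPM against 81.2, 80.3, 91.8 and 100.3 CPM (-0.81, SE 0.22, adjusted p = 0.191), again without overlap. DESeq2 called all 3 of these genes. In the authors' deposited table the FDR was 0.00971 for Ccng1 and 0.0667 for Ppm1d.

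After misoprostol Mdm2 stood at 81.1, 152.5, 167 and 97.2 CPM, all below vehicle. It was again the 1 of 5 members called, beside 0.251% of all genes (-1.08, SE 0.22, adjusted p = 0.0405). The call ended without vehicle replicate 1, 2, 3 or 4 (adjusted p = 0.14, 0.0654, 0.085 and 0.093), without misoprostol replicate 1 or 4 (0.188 and 0.172), with library totals as the only scaling (0.0732) and in a fit of the 2 groups alone (0.397). In the authors' deposited table its FDR was 0.00135. Ccng1 stood at 211, 333, 212 and 157 CPM (-0.58, SE 0.25, adjusted p = 0.692) and Ppm1d at 50.1, 83.2, 65.8 and 47.1 CPM (-0.54, SE 0.22, adjusted p = 0.662). Replicate 2, among the 3 HSC libraries of lowest rank correlation with the others, was the highest for both, and it overlapped vehicle. Without these 3 libraries the log2 fold change of Ccng1 was -0.96 (adjusted p = 0.179), and without replicate 2 alone it was -0.87. The same library held 1.33 CPM of Mdm4, from 52 counts, where the other 3 had 23.7 to 36.3 CPM.

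After rivenprost 0 of 5 members were called in HSC by edgeR, beside 0.494% of all genes, while 3 had an unadjusted p under 0.05 and DESeq2 called 1, Mdm2. Mdm2 stood at 141.1, 153.8, 142.7 and 153.4 CPM, with the smallest SD of the HSC groups (6.77), and below every vehicle library (-0.82, SE 0.22, adjusted p = 0.166). In the authors' deposited table its log2 fold change was -0.82 with an FDR of 0.0452. Ccng1 stood at 237, 201.5, 202 and 249 CPM (-0.63, SE 0.25, adjusted p = 0.604) and Ppm1d at 74.3, 54.1, 59.5 and 60.3 CPM (-0.53, SE 0.22, adjusted p = 0.661). Neither gene overlapped vehicle.

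After sulprostone 0 of 5 members were called in HSC by edgeR or DESeq2, beside 0.0147% of all genes, and none had an unadjusted p under 0.05. Mdm2 stood at 168, 215, 306 and 316 CPM, on both sides of vehicle (-0.03, 95% interval -0.48 to 0.43). Replicate 1 held 10680 summed CPM of granulocyte, 4776 of erythroid and 3513 of monocyte and macrophage markers. It had the lowest CPM of its group for all 5 genes (Ccng1 192 CPM). With CPM on the TMM-adjusted library size its Ccng1 value was 218.4, above replicate 2 at 213.7. Without replicate 1 the log2 fold change of Mdm2 was 0.09, and the part of those markers was not tested. Set directly against sulprostone, rivenprost gave 0 of 5 calls by edgeR, beside 0.332% of all genes, with 1 member at an unadjusted p under 0.05 and the same number called by DESeq2. This was Mdm2, lower in all 4 rivenprost libraries (-0.80, 95% interval -1.25 to -0.34, adjusted p = 0.222).

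**Figure D3:**
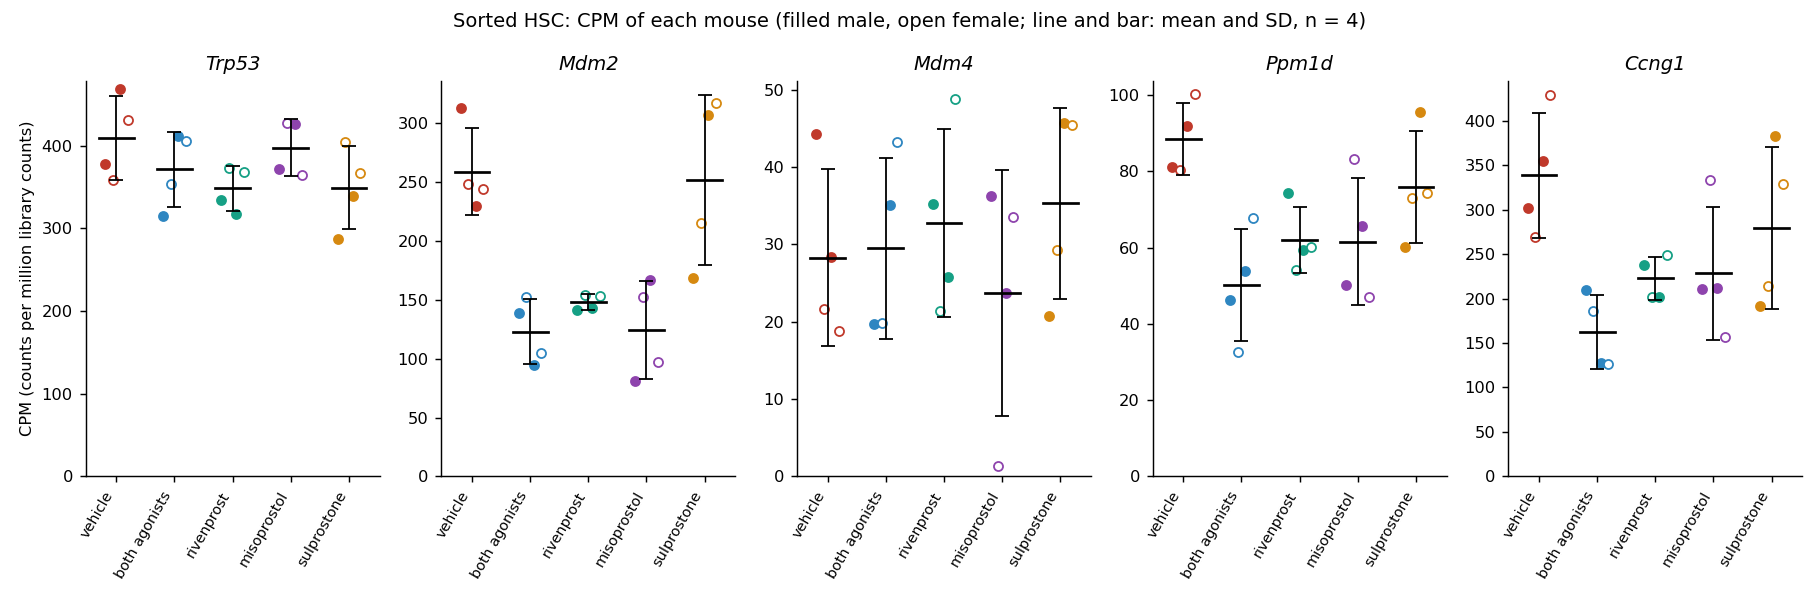
CPM of the 5 genes in sorted HSC of irradiated mice, 1 panel per gene, with 1 point per mouse (filled male, open female) and the mean with SD of 4 mice in each of the 5 groups. Mdm2 lies at 81.1 to 167 CPM in the both-agonists, rivenprost and misoprostol groups and at 168 to 316 CPM in the vehicle and sulprostone groups.

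The level of Trp53 in HSC was 286.6 to 469 CPM over the 20 libraries, with group means between 348 CPM (rivenprost) and 409 CPM (vehicle) and every group overlapping the next. The largest estimate was that of rivenprost, -0.25 (95% interval -0.51 to 0.0013, adjusted p = 0.783). Mdm4 was low, with group means of 23.7 to 35.3 CPM and SD of 11.4 to 15.9, so its intervals were wide, from -0.96 to 1.42 for rivenprost. Differences in Mdm4 within that interval remain compatible with these libraries. Of the 46 measured p53 targets 3 fell in HSC after both agonists and none rose (median -0.33, all genes -0.0024). They were Trp53inp1 (212 ± 20.3 to 49.1 ± 21.8 CPM, -2.12 on the log2 scale, SE 0.35, adjusted p = 0.003), Bbc3, which encodes the pro-apoptotic protein Puma (190.4 ± 77.7 to 33.3 ± 14.7 CPM, -2.49, SE 0.46, adjusted p = 0.00873), and Sesn2 (228 ± 46.9 to 54.7 ± 27.7 CPM, -2.03, SE 0.42, adjusted p = 0.0254). DESeq2 called 8 lower and 1 higher, and edgeR called 5 lower with library totals as the scaling, with the mouse number range as a term or without the 3 libraries of lowest rank correlation. This count was 9 without replicate 1 of both agonists, 2 without replicate 2 or 3 of them or without vehicle replicate 4, and 1 without replicate 4 of them or vehicle replicate 3. None was called by edgeR after rivenprost (12 at an unadjusted p under 0.05, 2 by DESeq2 and 2 in a fit alone, median -0.42), after misoprostol (9, 1 and -0.29, with 2 called when misoprostol replicate 2 was left out and 3 without the 3 libraries of lowest rank correlation) or after sulprostone (1, 0 and -0.06). The medians of all genes lay between -0.0046 and 0.0147 there. Of the 32 measured regulators and the 10 cyclin G1 partners, none was called in any HSC comparison by edgeR or DESeq2, with at most 2 at an unadjusted p under 0.05.

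Mdm2 was also read relative to Trp53 within each library, as the log2 ratio of their counts, which does not depend on scaling between libraries. In stroma the ratio was -0.48 ± 0.07 in irradiated and -1.76 ± 0.53 in non-irradiated vehicle mice. It was -1.49 ± 0.20 with dmPGE2, -1.52 ± 0.22 with both agonists, -1.02 ± 0.46 with rivenprost, -0.88 ± 0.28 with misoprostol and -0.44 ± 0.21 with sulprostone after irradiation. In HSC it was -0.67 ± 0.33 with vehicle, -1.62 ± 0.49 with both agonists, -1.74 ± 0.39 with misoprostol, -1.24 ± 0.06 with rivenprost and -0.51 ± 0.39 with sulprostone. An exact two-sided permutation test over the 70 relabellings of 4 and 4 mice, with p adjusted over 12 comparisons, gave its smallest possible p of 0.0286 (adjusted p = 0.049) in 7 of them. These were irradiation in vehicle mice, dmPGE2, both agonists and misoprostol in irradiated stroma, and both agonists, misoprostol and rivenprost in HSC. All 7 stand at the smallest possible p, so their shared adjusted p does not rank them. It also depends on how many of the 12 comparisons reached that p. Rivenprost in stroma gave an exact p of 0.0571 (adjusted p = 0.0857), and its replicate 4, at -0.56, lay within the vehicle range of -0.57 to -0.42. Irradiation under dmPGE2 gave an exact p of 0.429, and sulprostone 0.771 in stroma and 0.543 in HSC.

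**Figure D4:**
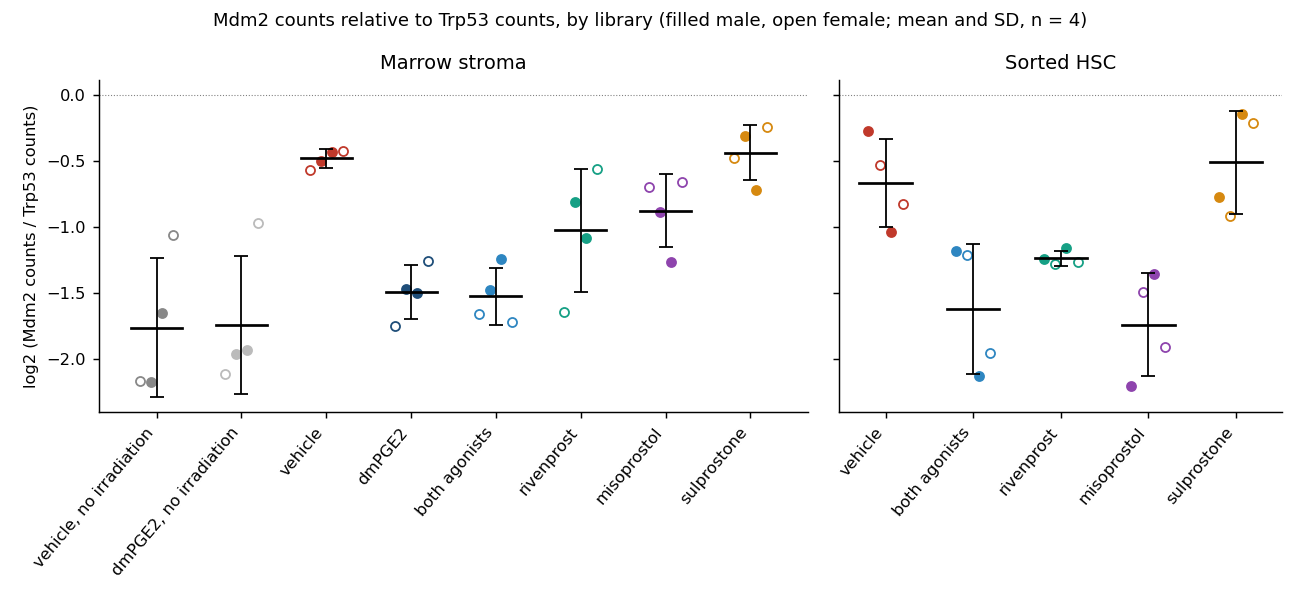
Log2 ratio of Mdm2 to Trp53 counts (vertical axis) in each library of stroma (left) and HSC (right), with 1 point per mouse and the mean with SD of 4 mice per group. The 4 irradiated vehicle stroma libraries lie between -0.57 and -0.42, above all dmPGE2 and both-agonists libraries, and replicate 4 of non-irradiated vehicle (-1.06) and of non-irradiated dmPGE2 (-0.97) lies above the rest of its group.

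Levels of different genes were compared per kilobase of the counted length, as CPM per kb. In non-irradiated vehicle stroma Trp53 was the highest at 110.3 ± 28.7, followed by Ccng1 at 35.6 ± 3.93, Mdm2 at 19.2 ± 1.85, Ppm1d at 14.6 ± 0.73 and Mdm4 at 12.1 ± 1.21 CPM per kb, with no overlap between neighbours. In irradiated vehicle stroma Ccng1, at 141.7 ± 12.8, overlapped Trp53 at 149.5 ± 9.87, and Mdm2 stood at 64.5 ± 3.94 CPM per kb. In vehicle HSC Trp53 stood at 219 ± 27, Ccng1 at 97.0 ± 20.1 and Mdm2 at 83.4 ± 11.9 CPM per kb, the last 2 overlapping, while Mdm4 stood at 3.85 ± 1.55. The fractions were made with different library kits, so no level was compared between them.

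The genes whose pattern over libraries was most like that of each member were found by Pearson's r of log2 CPM over the 32 stroma libraries, among 10810 genes with a mean of at least 5 CPM. For Mdm2 they were Sesn2 (r = 0.9752), Ccng1 (0.965) and Ei24 (0.956), for Ccng1 Fam212b (0.980), Eda2r (0.974) and Sesn2 (0.966), and for Ppm1d Gtse1 (0.936), Lpin1 (0.920) and Mdm2 (0.919). For Trp53 they were Thyn1 (0.923), Mak16 (0.923) and Cdc34 (0.915), and for Mdm4 Akap9 (0.883), Prrc2c (0.873) and Bptf (0.826). Over the 20 HSC libraries and 10247 genes the leading gene was BC017643 for Mdm2 (0.910), with Ddias (0.881) and Flcn (0.870) next. It was Sesn2 for Ccng1 (0.916, then Eda2r, 0.894, and Tnip3, 0.888) and Trp53inp1 for Ppm1d (0.853, then D17H6S56E-5, 0.826, and Exog, 0.814). It was Sf3a3 for Trp53 (0.786, then Zfp692, 0.775, and Cbfa2t3, 0.759) and Tbc1d24 for Mdm4 (0.909, then Cdc14a, 0.905, and Hdac6, 0.902). These values describe likeness only, since libraries of a group share their treatment.

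No member was called between female and male mice in either fraction. In stroma 0 of 5 were called by edgeR or DESeq2 (0 at an unadjusted p under 0.05), beside 2.87% of all genes, and in HSC also 0 of 5 by both tools (0 at an unadjusted p under 0.05), beside 0.0663%. The widest interval in stroma, that of Ccng1, ran from -0.12 to 0.29 on the log2 scale, female less male. Setd7, which methylates p53, was the 1 of 34 regulators called for sex in stroma (0.25, SE 0.06, adjusted p = 0.0357). This is 2.94% of the list, near the 2.87% of all genes.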

How the data were processed

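RNA-seq libraries of 20 HSC and 32 stroma samples were analysed. Per the labels' protocols, 1 ng of HSC RNA went into SMART-Seq v4 with Nextera XT, and 100 ng of stroma RNA into KAPA mRNA HyperPrep. Tools named in the submitters' processing notes are STAR 2.5, Subread 1.5.1, featureCounts, FastQC 0.11.5 and edgeR 3.36.0, and the build is mm10. The values analysed are raw counts per gene that the authors deposited, per the file headers. Log2 fold changes with their FDR, an adjusted p-value, were deposited too and are used only where the authors' table is named, while 52 deposited columns of log2 CPM were not used. No source used here states whether counting used strand, so reads of overlapping and antisense genes cannot be told apart.

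Counts were fitted with edgeR 4.0.16 (R 4.3.3; TMM factors; robust quasi-likelihood test), 1 model per table with a term for each group and for sex. The residual degrees of freedom were 14 (HSC) and 23 (stroma). P-values were Benjamini-Hochberg adjusted over all 13566 or 15168 genes and called under 0.05, without any further filter on low counts. The usual filter would remove 0 genes. CPM use raw library totals. Statements that groups did or did not overlap describe the CPM of the mice compared. No share of all genes without overlap is set beside them. Ratios were tested with an exact permutation test (scipy 1.17.1). DESeq2 1.42.0, other scalings, fits of the compared groups alone, the mouse number range of the titles as a term, a block of mouse number sets, and leaving out libraries were alternatives. Scripts were tested on simulated data.

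The members and gene lists were chosen with earlier results of these data known. The text names the members, the 4 called p53 targets of smallest adjusted p in each direction and comparison, called genes of the other lists up to 4, and the 3 genes most like each member; Plk2 was added after its values were seen. Replicate numbers follow accession order, and no label pairs mice. Libraries of a group differed beyond sampling noise, so each counted as 1 sample. P-values set the differences between groups against the variation between mice.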

Additional observations from a re-analysis of the deposited data

Results flagged for a closer look

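In the non-irradiated dmPGE2 stroma group, Trp53 was lowest in replicate 4, at 125.3 CPM, where the other 3 mice had 201.5 to 216 CPM. The gap to the nearest mouse was 0.840 of the range of the group, above the 95% limit of Dixon's test for 4 samples. It was the 1 gap past that limit among 65 groups of values (5 genes in 13 groups), and chance passes about 1 in 20. The same library had the highest sum of the 8 mesenchymal markers in its group, 29430 CPM where the group's lowest was 9452. Its sums of granulocyte (9392 CPM, lowest 784), monocyte and macrophage (1970 CPM, lowest 361) and HSC markers (530 CPM, lowest 256) were also the highest of the group. B cell, T and NK cell, endothelial, erythroid and megakaryocyte sums were highest in other replicates. The part of these markers was not tested.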

How the results depend on the processing

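Calls of Mdm2, Ppm1d and Ccng1 for irradiation in vehicle stroma, and for dmPGE2 and both agonists in irradiated stroma, kept direction and side of the threshold under every alternative run. Of 1560 refits of the 85 member results, 1438 kept both, 24 lost and 25 gained a call, and 73 changed sign. The libraries that stand apart, and a replicate block, were chosen after the data were seen. The block has a term for each set of mouse numbers in the titles (number range and sex together), which no label gives as a pairing. Libraries of a set deviated from their group means with correlations of -0.09 to 0.22 in HSC and -0.399 to 0.756 in stroma, not all above 0.1. With the block, Trp53 for irradiation in vehicle mice (0.33, adjusted p = 0.0265), Mdm2 with rivenprost (-0.58, adjusted p = 0.0472), Ppm1d with misoprostol (-0.46, adjusted p = 0.0364) and Mdm2 in the interaction (-1.19, adjusted p = 0.0388) passed in stroma, by edgeR, so members called became 2, 1 and 1 in the last 3, and no other member call changed. The cause of these changes was not tested.

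Members called became 3 with DESeq2 and 1 with library totals, with the mouse number range or in a fit alone for the interaction (0 in the main result, 0 to 1 with 1 library left out). For misoprostol in stroma they became 1 with library totals, DESeq2 or the number range (0 to 1), and for rivenprost in stroma 0 with RLE factors or alone (0 to 2). With DESeq2 they became 1 for irradiation in dmPGE2 mice and for HSC rivenprost against sulprostone. In HSC they became 1 for rivenprost with DESeq2 or alone, 3 with DESeq2, 0 alone and 2 without the libraries that stand apart for both agonists (0 to 2), and 0 with library totals or alone for misoprostol (0 to 1).

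Changes of sign are given here on the log2 scale. For Mdm4 in HSC they include main values of -0.27 (misoprostol, SE 0.57) and 0.23 (rivenprost, SE 0.57). Without the libraries that stand apart, HSC values were 0.0898 for Mdm2 with sulprostone, -0.0052 and 0.0293 for Mdm4 with both agonists and misoprostol, and -0.0625 for Mdm2 and -0.1208 for Ccng1 by sex; stroma values by sex were 0.0413 for Trp53 and -0.0337 for Mdm4. RLE factors and DESeq2 both gave -2e-04 for Ccng1 by sex in HSC, and gave -0.0042 and -0.0041 for Mdm4 in irradiated dmPGE2 mice and -0.0152 and -0.0151 for Mdm4 by sex in stroma. The number range gave 0.0512 for Trp53 and -0.0055 for Mdm4 by sex in stroma.

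Leaving out 1 library gave these ranges in HSC: Mdm2 with sulprostone -0.1371 to 0.0903, Mdm4 with rivenprost -0.0785 to 0.4682, with both agonists -0.1921 to 0.3424, with misoprostol -0.6412 to 0.1257 and for rivenprost against sulprostone -0.466 to 0.0539. Trp53 ran from -0.1361 to 0.0395 with misoprostol and from -0.0822 to 0.0172 for rivenprost against sulprostone. By sex Mdm2 ran from -0.0155 to 0.1155, Ppm1d from -0.1257 to 0.0317 and Ccng1 from -0.1064 to 0.0913. In stroma Mdm2 ran from -0.0981 to 0.009 for dmPGE2 without irradiation and from -0.1232 to 0.0532 with sulprostone, and Ccng1 from -0.12 to 0.1565 with sulprostone. Trp53 ran from -0.2212 to 0.1061 for dmPGE2 without irradiation, from -0.0188 to 0.1393 for rivenprost against sulprostone and from -0.0448 to 0.0226 by sex. Mdm4 ran from -0.0713 to 0.0793 in irradiated dmPGE2 mice, from -0.155 to 0.0461 with both agonists, from -0.2738 to 0.0104 with misoprostol and from -0.0301 to 0.0436 by sex.

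The share of all genes called is a background that also moved by more than 1.5 times from the values beside the results. With DESeq2 it was 0.855% for sulprostone, 1.8% for rivenprost, 2.22% for both agonists, 1.86% for misoprostol, 1.32% for rivenprost against sulprostone and 0.28% by sex in HSC. In stroma it was 1.64% and 0.125% for irradiation in vehicle and dmPGE2 mice, 6.39% and 4.42% for dmPGE2 without and with irradiation, 0.251% for sulprostone, 2.29% for rivenprost, 5.82% for both agonists, 2.49% for misoprostol, 0.936% for rivenprost against sulprostone, 0.0989% for the interaction and 4.98% by sex. With the number range it was 1.4%, 0.0791%, 6.78%, 5.24%, 2.18%, 7.41%, 1.91%, 0.593% and 0.0461% in that order, without sulprostone and sex. The replicate block gave 1.59%, 0.0725%, 9.43%, 7.71%, 2.5%, 8.85%, 2.33%, 0.89% and 0.0461% in the same order. Fits alone gave 0% for sulprostone, 0.332% for both agonists and 0.0811% for misoprostol in HSC, and in stroma 0.382% and 0% for irradiation, 0.547% and 1.29% for dmPGE2, 0.0132% for rivenprost, 1.58% for both agonists, 0.442% for misoprostol and 0% for rivenprost against sulprostone. RLE factors and library totals gave 0.0659% for the last. Without the libraries that stand apart it was 0% for sulprostone in HSC, and 2.2% for dmPGE2 without irradiation and 4.85% for both agonists in stroma. Leaving out 1 library lowered it more than 1.5 times in HSC for rivenprost without rivenprost replicate 3 or 4 or vehicle replicate 3 (0.302% to 0.31%), both agonists without vehicle replicate 3 (0.361%), misoprostol without its replicate 1 or vehicle replicate 3 (0.133% to 0.14%), and rivenprost against sulprostone without any library but sulprostone replicate 1 (0.155% to 0.214%). In stroma it was lowered for irradiation in vehicle mice without non-irradiated vehicle replicate 4 (0.455%), and for dmPGE2 without irradiation without dmPGE2 replicate 1 or vehicle replicate 2 or 3 (1.93% to 2.44%). For dmPGE2 with irradiation the libraries were dmPGE2 replicates 1 and 2 and vehicle replicates 2 and 3 (0.824% to 1.15%), for sulprostone all 8 (0.0264% to 0.0659%), for rivenprost its replicates 2 and 3 and vehicle replicates 1 to 3 (0.323% to 0.626%), for both agonists their replicates 1, 2 and 4 and vehicle replicates 2 and 3 (1.36% to 1.74%), and for misoprostol its replicates 1 and 2 and vehicle replicates 2 to 4 (0.316% to 0.574%). Rivenprost against sulprostone in stroma rose to 0.422% without sulprostone replicate 3 and 0.152% without rivenprost replicate 4, and was 0.0132% to 0.0198% without sulprostone replicate 1 or 2 or rivenprost replicate 2 or 3.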
